A study of Mus musculus with 6 samples.

Results

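The acyl-CoA synthetases and thioesterases examined here are 10 genes, Acsl1, Acsl3, Acsl4, Acsl5, Acsf2, Acss1, Acss2, Acot1, Acot2 and Acot13, whose products attach coenzyme A (CoA) to fatty acids or acetate, or take it off again. They were chosen by symbol, and all 10 were found among the 16448 genes of the expression table. RNA-seq was carried out on cardiomyocytes (CMs) in 3 Cpt1bcKO and 3 CtrlCre samples from mice of the C57BL/6 strain, aged 8 to 12 weeks. Cpt1bcKO mice were αMHC-Cre pos/+;Cpt1b fl/fl, so that Cpt1b, the muscle enzyme that passes long-chain acyl groups from CoA to carnitine at the outer mitochondrial membrane, was deleted in CMs from embryonic stages on. CtrlCre mice were αMHC-Cre pos/+;Cpt1b+/+ and thus carried the same Cre, which the cardiac α-myosin heavy chain promoter drives in CMs. CMs had been enriched from digested ventricles by centrifugation without a sort. The comparison asks which steps of fatty acid and acetate activation differ in transcript level when this transfer is lost.

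A fatty acid has to be bound to CoA before it can be oxidized, stored in lipids or used to modify proteins. Long-chain acyl-CoA synthetases (Acsl) do this for long-chain fatty acids, Acsf2 is a mitochondrial family member that acts on medium-chain acids, and the acetyl-CoA synthetases Acss1 and Acss2 activate acetate in mitochondria and in the cytosol and nucleus. Acyl-CoA thioesterases (Acot) split acyl-CoA back into free fatty acid and CoA. In the heart, which lives largely on fatty acids, Acsl1 is known as the main long-chain synthetase and several thioesterases are known targets of PPARα, a nuclear receptor that fatty acids activate.

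The sequences before the start sites are shown for the 3 members with an unadjusted P value below 0.05, since these carry the differences described further on. They come from RefSeq (GRCm38.p6) and were limited to bases that also lie before the start in the expression table. The window of Acsf2 is chr11:94601872-94602036 on the minus strand, that of Acsl3 is chr1:78657575-78657824 on the plus strand and that of Acss1 is chr2:150668259-150668490 on the minus strand. All are written 5′ to 3′ along the gene, and capitals mark GC boxes, the letters GGGCGG on either strand.
Acsf2: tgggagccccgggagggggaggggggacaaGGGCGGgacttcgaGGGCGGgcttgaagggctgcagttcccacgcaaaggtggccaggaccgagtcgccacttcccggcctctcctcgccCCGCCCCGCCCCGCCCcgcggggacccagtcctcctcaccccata
Acsl3: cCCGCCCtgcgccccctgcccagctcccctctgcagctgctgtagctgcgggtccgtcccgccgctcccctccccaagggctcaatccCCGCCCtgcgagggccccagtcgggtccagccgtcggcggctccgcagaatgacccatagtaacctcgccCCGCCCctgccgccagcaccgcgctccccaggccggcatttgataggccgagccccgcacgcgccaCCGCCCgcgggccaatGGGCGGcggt
Acss1: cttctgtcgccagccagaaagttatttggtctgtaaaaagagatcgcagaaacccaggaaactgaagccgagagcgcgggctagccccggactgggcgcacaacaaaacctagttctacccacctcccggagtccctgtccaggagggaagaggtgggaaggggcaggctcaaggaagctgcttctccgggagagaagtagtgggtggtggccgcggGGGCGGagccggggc
In these stretches, Acsf2 and Acsl3 hold 5 GC boxes each and Acss1 holds 1, and the last 3 boxes of Acsf2 overlap. Windows of the full 250 bases before the start were available for 9 members, Acot13 being the exception, and Acsl1 had 2 of them. The GC box was found in 32.7% of all 32851 such windows. Among the members' full windows, those of Acsl5 and Acot2 and window 2 of Acsl1 held 0 GC boxes. Each of the others held at least 1, and that of Acss1 held 2. The nuclear receptor half-site AGGTCA, searched on both strands, was in 14.0% of all windows and in none of the members' windows. The same holds for AGGTCANAGGTCA, which contains that half-site and was in 0.0335% of all windows. These are matches of letters in a short window and were not tested for binding.

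Deposited values are normalised read counts, rounded to whole numbers. Their sums were 13393411 to 31722217 per sample, of which the mitochondrial rRNA gene mt-Rnr2 took 61.8% to 80.8%, and 3146414 to 3551692 without mitochondrial-encoded and rRNA genes. Reads on genes were estimated at 14800000 to 24500000 in the 4 samples whose low values resolved the worth of a single read. The depth of CtrlCre sample 1 and Cpt1bcKO sample 2 was not resolved. Cpt1b fell from 1861, 893 and 1443 in CtrlCre samples 1, 2 and 3 to 211, 353 and 285 in Cpt1bcKO samples 1, 2 and 3. The log2 change of Cpt1b was −2.27 (SE 0.267, limma, adjusted P = 0.00338), which matches the labels, although the value counts reads over the whole gene and not only over the deleted exons. Xist was 957 and 1080 in sample 1 of the 2 groups and at most 78 in the others, so sample 1 of each group was from a female mouse. All samples expressed CM markers at a high level, with Myh6, the α-myosin heavy chain, at 82872 to 149899.

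Among the 10 members, only Acsf2 changed at an adjusted P value below 0.05, and it rose 3.58-fold (95% confidence interval 2.77 to 4.63). Over all 11364 genes tested, 178 (1.57%) passed this threshold, 75 of them (0.660%) being higher in Cpt1bcKO CMs. The count of 178 ranged from 41 to 603 over the alternatives, whereas Acsf2 passed in each of them. At an unadjusted P value below 0.05, Acsf2 and Acsl3 were higher, against 6.66% of all genes, and Acss1 was lower, against 7.22%. The groups did not overlap in 4 of the 10 members, which were these 3 genes and Acsl4, and in 18.7% of all genes. Fold changes were positive in 7 and negative in 3 members, with a median log2 change of 0.11 against −0.0013 over all genes tested. All 3 negative values were those of synthetases.

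**Figure D1:**
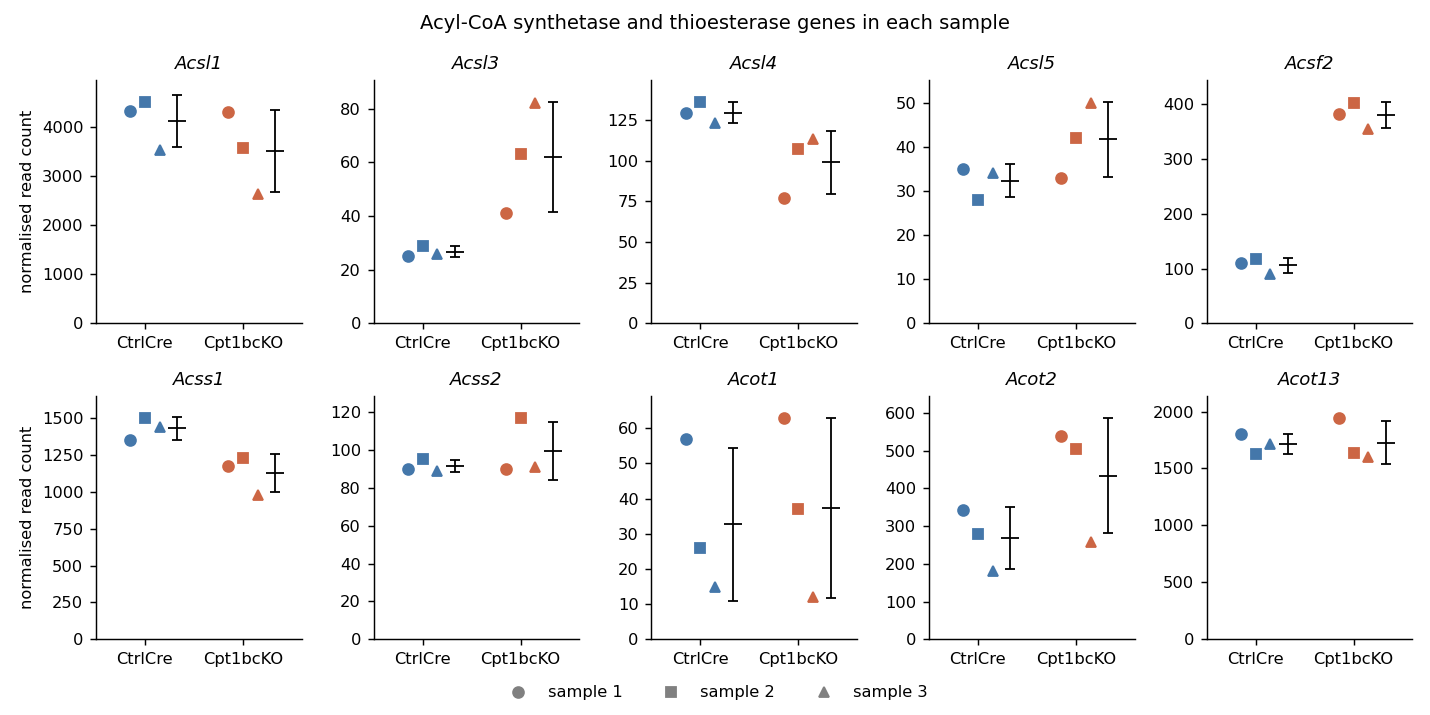
Normalised read counts of the 10 genes in each sample, on linear axes that start at 0. Points are samples (circle 1, square 2, triangle 3), and bars are the mean and SD of 3 samples. Acsf2 lies between 355 and 403 in Cpt1bcKO and between 90 and 117 in CtrlCre CMs, whereas Acot1 and Acot2 spread widely within both groups.

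Acsf2 (ENSMUSG00000076435, chr11:94557102-94601871, minus strand, GRCm38) had 111, 117 and 90 normalised read counts in CtrlCre samples 1, 2 and 3 and 383, 403 and 355 in Cpt1bcKO samples 1, 2 and 3. Every Cpt1bcKO value was more than 3 times every CtrlCre value. The log2 change was 1.84 (SE 0.167, limma with Benjamini–Hochberg adjustment, adjusted P = 0.000804), the seventh lowest P value of all genes tested. Of the sequence windows of 75 bases, the read length, in the transcripts of Acsf2, 25.2% also occur in Gm5540, a processed pseudogene on chromosome 3. Reads on several regions had been left out by the authors, and Gm5540 itself had values of 1, 2 and 1 in CtrlCre and 7, 8 and 4 in Cpt1bcKO samples. Chad, a matrix protein gene within the span of Acsf2 on the other strand that shares no exon bases with it, had values from 0 to 5.

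Among the long-chain synthetases, Acsl1 (chr8:46471037-46536051) had 4325, 4514 and 3530 normalised read counts in CtrlCre and 4302, 3580 and 2635 in Cpt1bcKO samples. The groups overlapped, and Cpt1bcKO sample 3 was the lowest of the 6. Its log2 change was −0.25 (95% confidence interval −0.68 to 0.17, limma, adjusted P = 0.598), which was −0.063 without Cpt1bcKO replicate 3 and −0.42 without Cpt1bcKO replicate 1. Acsl3 (chr1:78657825-78707743), a synthetase of the endoplasmic reticulum and lipid droplets, had 25, 29 and 26 in CtrlCre and 41, 63 and 82 in Cpt1bcKO samples. All Cpt1bcKO values were above all CtrlCre values, but they differed among themselves by a factor of 2. The log2 change of Acsl3 was 1.14 (SE 0.292, 95% confidence interval 0.49 to 1.78), and limma gave an unadjusted P = 0.00284 and an adjusted P = 0.0997. Without Cpt1bcKO replicate 1, the lowest of its group, the log2 change of Acsl3 was 1.40 and its adjusted P value 0.0296 in limma. Of the exon bases of Acsl3, 5.60% also belong to Utp14b on the same strand, whose log2 change was 0.0095. On the opposite strand, Gm45244 overlaps 9.91% of the exon bases of Acsl1 and had values of 10 to 39, and Zdhhc6 overlaps 8.31% of those of Acsl5 and had a log2 change of −0.28. Acss1 shares 2.74% with E130215H24Rik and Acss2 at most 3.89% with a single gene, Gss. The authors left out reads on several genes. Since the strand setting is not given, it is not known whether reads on such shared bases were left out or assigned by strand.

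Acsl4 (chrX:142317993-142390535), which prefers arachidonic acid and other polyunsaturated fatty acids, had 129, 136 and 123 normalised read counts in CtrlCre and 77, 107 and 113 in Cpt1bcKO samples. The groups did not overlap, with Cpt1bcKO sample 1 lowest, and the log2 change of −0.40 (95% confidence interval −0.84 to 0.043, limma, adjusted P = 0.406) did not pass the test. Without Cpt1bcKO replicate 1, the log2 change of Acsl4 was −0.23. Acsl5 (chr19:55253369-55297720), a synthetase of mitochondria and endoplasmic reticulum, had 35, 28 and 34 in CtrlCre and 33, 42 and 50 in Cpt1bcKO samples. These ranges overlapped, and the log2 change was 0.34 (95% confidence interval −0.25 to 0.93, limma, adjusted P = 0.612). Without Cpt1bcKO replicate 3, the log2 change of Acsl5 was 0.20.

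The members of the Acsl family were compared within each sample as value per kilobase of exon, which does not depend on the scaling between samples. Acsl1 held 90.9%, 91.0% and 89.2% of the summed value per kilobase of Acsl1, Acsl3, Acsl4, Acsl5 and Acsl6 in CtrlCre samples and 91.9%, 87.5% and 81.5% in Cpt1bcKO samples. The means were 90.3% ± 1.03 and 87.0% ± 5.20 (SD, n = 3 each), and an exact two-sided permutation test gave P = 0.4, where the smallest possible value is 0.1. The share of Acsl3 was 1.42% on average in CtrlCre and 3.97% in Cpt1bcKO CMs. In Cpt1bcKO sample 3, where the share of Acsl1 was lowest, Acsl3 reached 6.10% and Acsl4 6.78%. The share of mt-Rnr2 in all values was 61.8%, 72.6% and 80.8% in Cpt1bcKO samples 1, 2 and 3, so it was highest in the sample with the lowest share of Acsl1 and the highest value of Acsl3, and its part in these values was not tested. Acsl1 remained the most abundant of the 5 in every sample.

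**Figure D2:**
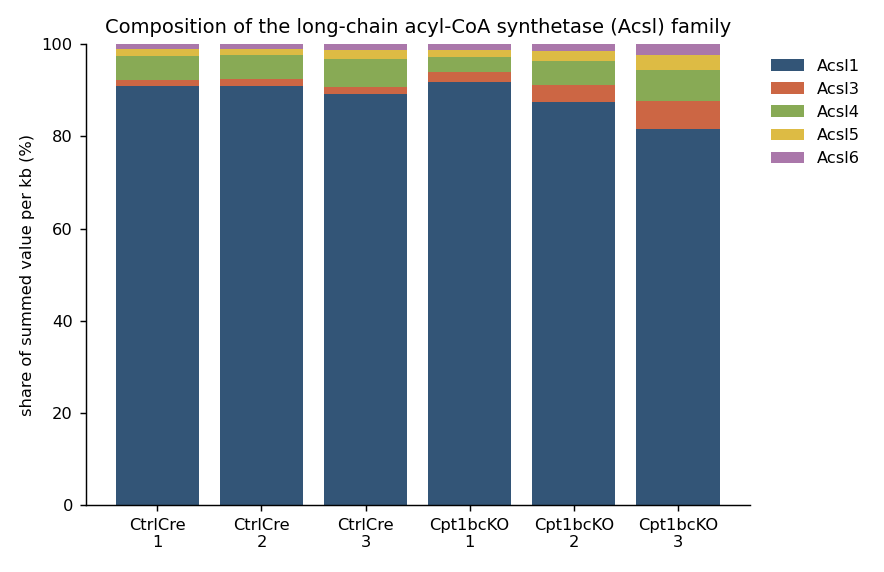
Share of each Acsl gene in the summed value per kilobase of exon of the 5 genes, in percent, for each sample. Bars add up to 100%, and Acsl1 makes up 81.5% to 91.9% of each, with the lowest share in Cpt1bcKO sample 3.

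Of the acetate-activating genes, Acss1 (chr2:150618105-150668258), the mitochondrial acetyl-CoA synthetase, had 1351, 1504 and 1442 normalised read counts in CtrlCre and 1176, 1231 and 982 in Cpt1bcKO samples. Each Cpt1bcKO value was below each CtrlCre value, by a narrow margin. The log2 change of Acss1 was −0.35 (SE 0.140, 95% confidence interval −0.66 to −0.037), and limma gave an unadjusted P = 0.0319 and an adjusted P = 0.295. The unadjusted threshold was missed in 5 alternatives, which were 1 prior variance for all genes, the fits without CtrlCre replicate 2, CtrlCre replicate 3 or Cpt1bcKO replicate 3, and scaling to the sum without mitochondrial-encoded and rRNA genes, where its log2 change was −0.24 and the median of all genes shifted to 0.11. Acss2 (chr2:155517948-155585724), the cytosolic and nuclear enzyme, had 90, 95 and 89 in CtrlCre and 90, 117 and 91 in Cpt1bcKO samples. These values overlapped, and the log2 change of Acss2 was 0.11 (95% confidence interval −0.31 to 0.53). The share of Acss1 in the summed value per kilobase of both genes was 97.4%, 97.5% and 97.6% in CtrlCre and 97.0%, 96.3% and 96.4% in Cpt1bcKO samples. It was lower in all 3 Cpt1bcKO samples (exact two-sided permutation test, P = 0.1, the smallest value that 3 samples against 3 allow).

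Among the thioesterases, Acot2 (chr12:83987861-83993873), which acts on long-chain acyl-CoA in the mitochondrial matrix, had 344, 279 and 182 normalised read counts in CtrlCre and 539, 505 and 258 in Cpt1bcKO samples. Cpt1bcKO sample 3 lay below CtrlCre samples 1 and 2, so that the groups overlapped. The log2 change of Acot2 was 0.67 (SE 0.302, 95% confidence interval −0.0023 to 1.34), and limma gave an unadjusted P = 0.0507 and an adjusted P = 0.361. Acot2 passed the unadjusted threshold in 6 of the 15 alternatives, among them the fits without CtrlCre replicate 1 and without Cpt1bcKO replicate 3. With a replicate block it also passed the adjusted one (limma, adjusted P = 0.0153), although pairing of the numbers beyond sex was not established. Acot1 (chr12:84009490-84018371), its cytosolic neighbour in the same gene cluster, had 57, 26 and 15 in CtrlCre and 63, 37 and 12 in Cpt1bcKO samples. The spread within either group was far larger than the difference between them, and the log2 change of 0.11 had a 95% confidence interval of −1.21 to 1.43. Acot13 (chr13:24817948-24831517), a small thioesterase found at mitochondria, had 1807, 1628 and 1715 in CtrlCre and 1945, 1632 and 1602 in Cpt1bcKO samples. The groups overlapped nearly fully, with a log2 change of 0.0038 and a 95% confidence interval of −0.30 to 0.31.

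Acot1 and Acot2 are close copies of each other. Of the 75-base windows of Acot2, 20.5% also occur in Acot1, and of those of Acot1, 11.2% also occur in Acot2. Since reads on several regions had been left out, the values of both genes rest on the parts in which they differ. Values per kilobase were nevertheless divided by the full exon length, shared parts included. The share of Acot2 in the summed value per kilobase of both was 91.5%, 95.04% and 95.6% in CtrlCre and 93.9%, 96.1% and 97.5% in Cpt1bcKO samples (exact two-sided permutation test, P = 0.4). Sample 1 had the lowest share of Acot2 in both groups.

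Ordered by the mean value per kilobase of exon in CtrlCre CMs, the level of Acot13 was highest (2307 ± 120, SD, n = 3), followed by Acsl1 (393 ± 49.8), Acss1 (347 ± 18.6), Acot2 (122 ± 37.1), Acsf2 (30.9 ± 4.13) and Acsl4 (23.9 ± 1.20). Acss2 (8.99 ± 0.316), Acot1 (8.34 ± 5.56), Acsl5 (6.65 ± 0.778) and Acsl3 (6.12 ± 0.478) were lowest. The ranges of Acsl1 and Acss1 overlapped, and so did those of each neighbouring pair among the lowest 4. In Cpt1bcKO CMs, Acsf2 reached 111 ± 7.03 per kilobase and kept its place after Acot2 (198 ± 69.8), while Acsl3 (14.2 ± 4.71) stood in seventh place, with a range that overlapped those of Acsl4 (18.3 ± 3.57) and Acss2 (9.77 ± 1.51). Exon lengths are those of all annotated isoforms joined, so a gene with long exons that CMs do not use, for example in Acsl1 with 10.5 kilobases, may be placed too low. The lengths also include sequence shared with other genes, on which reads had been left out. Acsf2, Acot2 and Acot1, with 25.2%, 21.2% and 15.0% of their 75-base windows shared, may therefore be placed too low as well.

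The other genes of both enzyme families were examined from lists. For these and the later lists, 5655 of the 11364 genes tested had positive fold changes. At an unadjusted P value below 0.05 in limma, 6.66% of all genes were higher and 7.22% lower. Of 18 further synthetases, 9 were in the table and 6 passed the filter on low values. All 6 had positive fold changes, with a median log2 change of 0.33 that was 0.088 when the filter was left out and 0.20 without CtrlCre replicate 3. The genes in the table that the filter left out had lower means in Cpt1bcKO than in CtrlCre samples, so the shared sign depends on the filter. Before adjustment 1 of the 6 passed the threshold of 0.05 in limma, and after adjustment 0. This gene was Aacs, the acetoacetyl-CoA synthetase of the cytosol, with 5, 11 and 8 normalised read counts in CtrlCre and 13, 24 and 19 in Cpt1bcKO samples. The groups did not overlap, but the values were low, and the log2 change of Aacs was 1.14 (SE 0.452, limma, adjusted P = 0.286). Aacs reached the filter's value of 10 in CtrlCre sample 2 and in every Cpt1bcKO sample, so it passed the filter through the group in which it was higher. Of 14 further thioesterases, 8 were in the table and 6 were tested, of which 4 had positive and 2 negative fold changes, with a median log2 change of 0.13, which was 0.040 without CtrlCre replicate 3 and 0.32 without CtrlCre replicate 2. Acot4, which is known to act on succinyl-CoA in peroxisomes, was the one with an unadjusted P value below 0.05. It had 16, 13 and 6 normalised read counts in CtrlCre and 19, 24 and 23 in Cpt1bcKO samples, with a log2 change of 0.95 (SE 0.422, limma, adjusted P = 0.353). This log2 change was 0.57 without CtrlCre replicate 3.

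**Figure D3:**
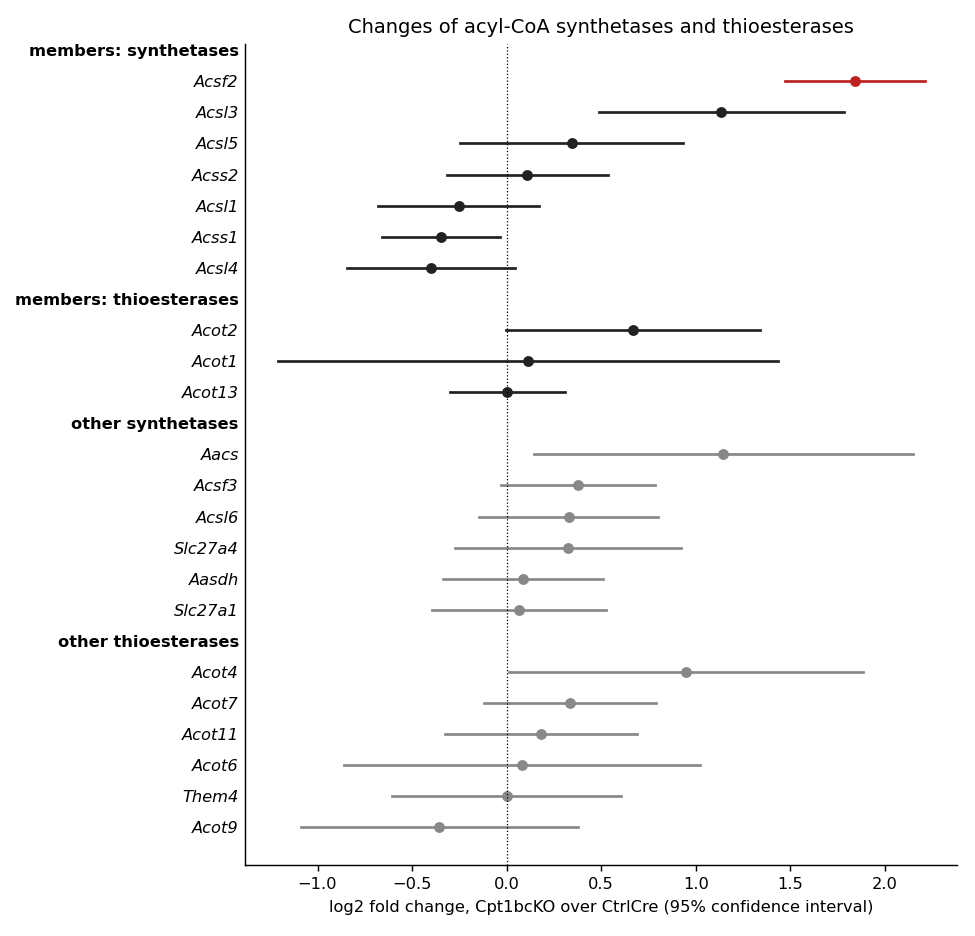
Log2 changes of the 10 genes (black, red where the adjusted P value is below 0.05) and of the other synthetases and thioesterases tested (grey), with 95% confidence intervals. Acsf2 at 1.84 is the one interval in red, and the interval of Acot1 from −1.21 to 1.43 is the widest among the 10 genes.

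Genes that use acyl-CoA or acetyl-CoA were compared next. Of 26 listed, 23 were tested, with 15 positive and 8 negative fold changes and a median log2 change of 0.094, which was 0.0033 with samples 2 and 3 only, 0.034 without CtrlCre replicate 3 and 0.21 without Cpt1bcKO replicate 3. Before adjustment 4 passed the threshold of 0.05 in limma, all higher in Cpt1bcKO CMs, against 6.66% of all genes, and after adjustment 0. Scd1, the Δ9 fatty acid desaturase, had 18, 19 and 40 normalised read counts in CtrlCre and 42, 49 and 94 in Cpt1bcKO samples (log2 change 1.24, SE 0.390, limma, adjusted P = 0.181). Gpam, which starts glycerolipid synthesis at the mitochondrial outer membrane, had 1018, 974 and 544 in CtrlCre and 1697, 1469 and 1009 in Cpt1bcKO samples (log2 change 0.74, limma, adjusted P = 0.227). Without CtrlCre replicate 3, Gpam had a log2 change of 0.45. Its groups overlapped by Cpt1bcKO sample 3 and CtrlCre sample 1 alone, while those of Scd1 did not overlap. Agpat2, the acyltransferase of the following step, had a log2 change of 0.72 (limma, adjusted P = 0.242). Acacb, the acetyl-CoA carboxylase that makes malonyl-CoA at mitochondria, had one of 0.40 (limma, adjusted P = 0.277).

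PPAR targets other than the members were listed because several thioesterases belong to that group. All 26 were tested, with 19 positive and 7 negative fold changes and a median log2 change of 0.20, which was 0.0065 without Cpt1bcKO replicate 1, 0.059 without CtrlCre replicate 3, 0.33 without CtrlCre replicate 1 and 0.38 without Cpt1bcKO replicate 3. Before adjustment 6 higher genes and 1 lower gene passed the threshold of 0.05 in limma, against 6.66% and 7.22% of all genes, and after adjustment 0. Hadhb, a subunit of the mitochondrial trifunctional protein, had a log2 change of 0.47 (limma, adjusted P = 0.239), and Cidea, a lipid droplet protein, had one of 0.66 (limma, adjusted P = 0.287). Pdk4, a kinase that inhibits pyruvate dehydrogenase, had a log2 change of 1.64 (limma, adjusted P = 0.179). Its values were 5605, 3909 and 1573 in CtrlCre and 21655, 8824 and 5458 in Cpt1bcKO samples, so the groups overlapped. The log2 change of Pdk4 was 1.09 without Cpt1bcKO replicate 1 and 2.09 without Cpt1bcKO replicate 3, the lowest and highest values when single samples were left out. Txnip, an arrestin-like protein that limits glucose uptake, was the lower gene (log2 change −0.61, limma, adjusted P = 0.355), at −0.32 without CtrlCre replicate 1 and −0.97 without CtrlCre replicate 3.

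Averaged over the PPAR targets, the log2 difference from the CtrlCre mean was 0.42, 0.095 and −0.52 in CtrlCre samples 1, 2 and 3 and 0.76, 0.34 and −0.13 in Cpt1bcKO samples 1, 2 and 3. For the 3 thioesterases among the members it was 0.49, −0.029 and −0.46 in CtrlCre and 0.79, 0.42 and −0.43 in Cpt1bcKO samples. Sample 1 was the highest and sample 3 the lowest of its group in both sets. For the 7 synthetases it was 0.011, 0.059 and −0.070 in CtrlCre and 0.22, 0.45 and 0.37 in Cpt1bcKO samples. These means did not overlap, but they include the large values of Acsf2 and Acsl3, the median log2 change of the 7 genes was 0.11 with 3 of them lower, and their summed values of 5334 to 6423 and 4308 to 6102 overlapped. With 6 samples in 2 groups, these are descriptions, and the difference between the sets was not tested.

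**Figure D4:**
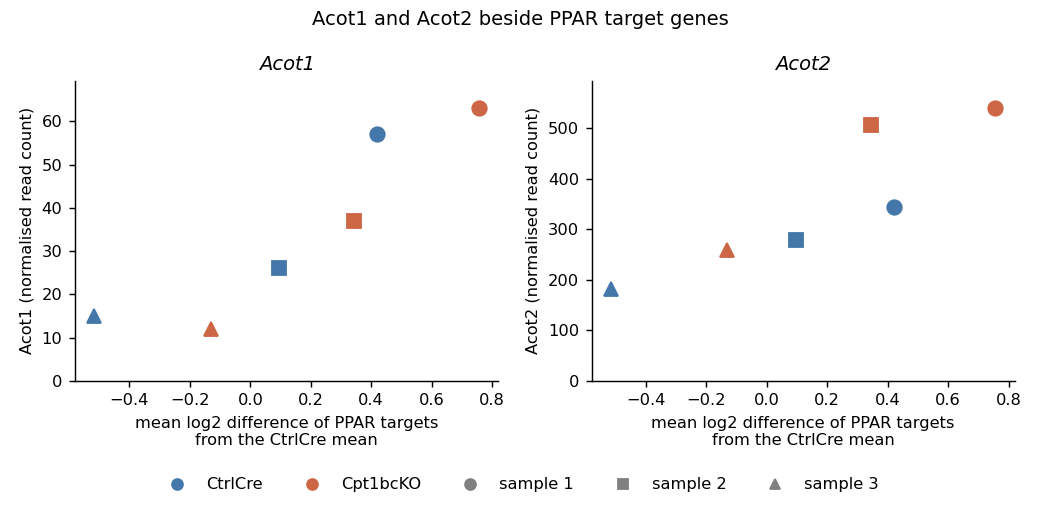
Normalised read count of Acot1 (left) and Acot2 (right) against the mean log2 difference of 26 PPAR targets from the CtrlCre mean, for each sample. Colours are groups and symbols are sample numbers, and sample 3 of each group has the lowest values on both axes within its group.

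**Figure D5:**
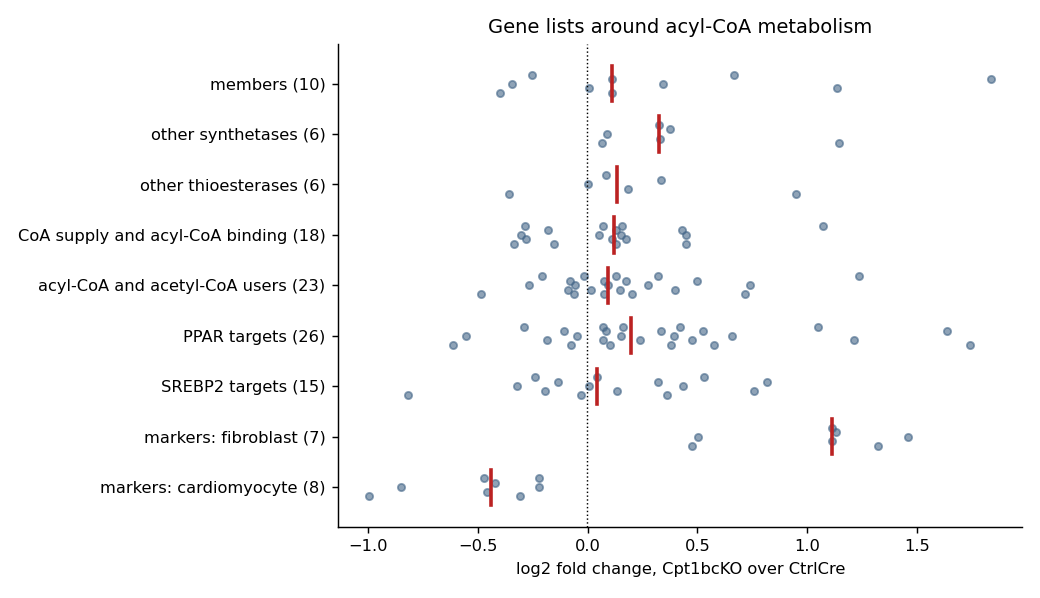
Log2 changes of the genes tested in each list, with the number of genes in brackets. Points are genes, placed up and down within a list only to separate them, red lines are medians, and the dotted line is the median of all genes tested (−0.0013). The fibroblast markers are all above 0 and the CM markers all below 0.

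Markers of other cells were examined beside these results, since CMs were not sorted. Of 8 fibroblast markers, 7 were tested, and all 7 were higher at an unadjusted P value below 0.05, with a median log2 change of 1.12. Of these, 2 passed the adjusted threshold, the collagen gene Col1a1 and the proteoglycan gene Lum. The summed value of the 8 markers was 498 to 785 in CtrlCre and 1108 to 1338 in Cpt1bcKO samples. Dcn, the most abundant of them, had a log2 change of 0.50 that was 0.31 without CtrlCre replicate 1 and 0.24 with samples 2 and 3 only. All 8 endothelial markers had positive fold changes (median 0.34), but their summed values of 1241 to 2620 and 2308 to 2639 overlapped, with Kdr, the most abundant, at a log2 change of 0.40 that was 0.012 without CtrlCre replicate 1 and −0.037 with samples 2 and 3 only. The summed value of the 8 smooth muscle and pericyte markers was 3422 to 4761 in CtrlCre and 2782 to 3088 in Cpt1bcKO samples. Most of it came from Abcc9, a potassium channel subunit that CMs also express (log2 change −0.80, limma, adjusted P = 0.0123). Of these markers 6 were tested, with 3 positive and 3 negative fold changes and a median log2 change of −0.12. The summed value of the 8 macrophage markers was 135 to 225 in CtrlCre and 169 to 190 in Cpt1bcKO samples, with Mrc1 at a log2 change of −0.049. Of 8 adipocyte markers, 2 were in the table, and their sum was 209 to 342 and 270 to 311, with Fabp4 at 0.031. Of 6 erythroid markers, 2 were in the table, with sums of 1 to 20, and Alas2 was not tested. All 8 CM markers had negative fold changes (median −0.44), with summed values of 219433 to 278610 and 163921 to 193705. Of these, 2 were lower at an unadjusted P value below 0.05 in limma, the groups did not overlap in 4, and none passed the adjusted threshold. The log2 change of Acsf2 (1.84) exceeded that of each fibroblast marker tested, of which Lum was highest at 1.46. In RNA of many cells, more cells of a type and more RNA per cell cannot be told apart, and the part of fibroblast RNA in the differences of Acsf2, Acsl3 and the lists was not tested.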

How the data were processed

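RNA-seq was carried out on CMs in 3 CtrlCre and 3 Cpt1bcKO samples, grouped by their titles. According to the study's methods and the submitters' processing notes, the authors trimmed single-end reads of 75 bases (Trimmomatic 0.36), aligned them to GRCm38.p5 (mm10) with STAR 2.5.4b and counted them per gene with featureCounts 1.6.0, leaving out reads on several genes or regions. The strand setting and annotation release are not given in the sources used here. The deposited values are a score, as the authors divided counts by size factors and then rounded them to whole numbers, and count models were not used. Columns of the authors' own comparison by DESeq2 (group means, fold changes and P values) were not used.

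Values were compared as log2(value + 1) with limma (3.58.1, R 4.3.3; lmFit and eBayes with a trend, two-sided) in genes that reached a value of 10 in 3 or more samples, with Benjamini–Hochberg adjustment over all 11364 genes tested and a threshold of 0.05. Fold changes on this scale understate those of low genes. The study's methods speak of biological replicates, while the labels do not name the mouse of each sample. In the 4 samples where it was resolved, 1 read was worth a value of 0.682 to 1.29. Within-family shares were compared by exact permutation tests. Exon lengths and shared 75-base windows came from GENCODE vM21, in which 7 of the 10 members have the same start and end as in the deposited table, whose coordinates are given. Alternatives were other scalings, filters, pseudocounts (0.5 and 5), 1 prior variance, a replicate block, samples 2 and 3 only, and leaving out each sample. The fit was tested on simulated data.

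The members and lists were chosen with earlier results of these data known. Named genes are the members, Cpt1b, up to 5 genes per list with the lowest unadjusted P values below 0.05, the most abundant gene of each marker list, and genes that overlap or share sequence with a member. A gene of the PPAR target list that this rule names is not reported here. Col1a1 and Lum were named after their values were seen. Samples of other mouse lines were not analysed here. Figures were drawn with matplotlib 3.10.9 and tables written with pandas 2.3.3 and numpy 2.4.6, under Python 3.11.15.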

Additional observations from a re-analysis of the deposited data

How the results depend on the processing

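Acsf2 passed the adjusted threshold in the 15 alternatives, with log2 changes of 1.73 to 1.95 and adjusted P values of 0.00021 to 0.0189 in limma. The replicate numbers of the groups were checked for pairing. Deviations from the group means correlated with r = 0.376, 0.255 and 0.0684 for same-numbered samples 1, 2 and 3 across genes, and sample 3 did not correlate best with its own number. Same-numbered samples share sex, as Xist and the Y-linked Ddx3y show, and pairing beyond that was not established. With a replicate block, 3 members passed the adjusted threshold in place of 1, adding Acsl3 (limma, adjusted P = 0.0402) and Acot2 (limma, adjusted P = 0.0153), and 6 the unadjusted one in place of 3. The block also called Scd1, Gpam, Agpat2, Pdk4, Hadhb and Fdft1, and changed no other call among the members, Cpt1b and the list genes named by their P values or abundance. When single samples were left out, 1 to 2 members passed the adjusted and 2 to 4 the unadjusted threshold. The second was Acsl3, without Cpt1bcKO replicate 1. The median log2 change of the members stayed positive, at 0.014 to 0.25. Signs of Acss2, Acot1 (−0.40 to 0.75) and Acot13, none of which passed, changed in 1, 3 and 4 of the 15 alternatives. Calls over all genes numbered 603 with the block, 110 with samples 2 and 3 only, 41 with 1 prior variance, 85, 77 and 72 without CtrlCre replicates 1, 2 and 3, and 328 and 42 without Cpt1bcKO replicates 1 and 2. With 1 prior variance, Cpt1b missed the threshold in limma (adjusted P = 0.0563), and Abcc9 lost its call there and in 3 fits without a single sample. The causes of these changes were not tested. The difference in the share of Acsl1 was −5.84 to −0.66 percentage points without single samples, that of Acss1 −1.15 to −0.79 and that of Acot2 0.48 to 2.72. Values near 10 rest on about that number of reads, which limits Aacs, Acot4 and the lowest values of Acot1.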

Other observations

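Genes of CoA supply and acyl-CoA binding form a further list. Of 20 listed, 18 were tested, with 12 positive and 6 negative fold changes and a median log2 change of 0.12, which was 0.053 without CtrlCre replicate 2 and 0.073 without CtrlCre replicate 1. Before adjustment 1 passed the threshold of 0.05 in limma, and after adjustment 0. This was Nudt8, a mitochondrial hydrolase of CoA and its esters, with 15, 25 and 15 normalised read counts in CtrlCre and 31, 37 and 50 in Cpt1bcKO samples. All Cpt1bcKO values were above all CtrlCre values, and the log2 change of Nudt8 was 1.07 (SE 0.329, limma, adjusted P = 0.171). Coasy, the last enzyme of CoA synthesis, had a log2 change of 0.45 (limma, adjusted P = 0.455) and was named after its values were seen.

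SREBP2 targets, most of them enzymes of cholesterol synthesis that starts from acetyl-CoA, had a median log2 change of 0.043, which was 0.066 to 0.25 when single samples were left out and 0.26 with samples 2 and 3 only. Of 22 listed, 15 were tested, 9 with positive and 6 with negative fold changes. Insig1, which holds SREBP proteins back in the endoplasmic reticulum, had 77, 76 and 50 normalised read counts in CtrlCre and 105, 119 and 131 in Cpt1bcKO samples, with a log2 change of 0.82 (limma, adjusted P = 0.125). Msmo1, a demethylase of the sterol pathway, had a log2 change of 0.76 (limma, adjusted P = 0.299), which was 0.48 without CtrlCre replicate 1. Fdft1, the squalene synthase, had 303, 160 and 165 normalised read counts in CtrlCre and the lower values of 150, 102 and 94 in Cpt1bcKO samples, with a log2 change of −0.82 (limma, adjusted P = 0.205). Without CtrlCre replicate 1, the log2 change of Fdft1 was −0.52. The groups did not overlap in any of these 3 genes, and 0 genes of the list passed the adjusted threshold.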
